A study of Rattus norvegicus with 12 samples.

Results

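Cyclic nucleotide phosphodiesterases were followed in PC12 cells, a line from a rat adrenal pheochromocytoma, during treatment with PACAP38. The 10 genes examined were Pde1b, Pde2a, Pde3a, Pde3b, Pde4a, Pde4b, Pde4d, Pde7a, Pde8a and Pde10a, chosen by symbol. Every probe other than a control spot that carried one of these symbols was taken, which gave 16 probes of the 41012 on the array, or 10 of its 33212 gene names. Pde4d had 5 probes, Pde3a and Pde7a had 2 each, and the other genes had 1 each.

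PACAP38 was added at 1e-07 M, with cells taken at 6 times from 5 to 120 min (the others being 10, 15, 30 and 60 min), and the RNA of each time point was compared with control RNA labelled for the same time point. The study refers to its control as cells without added PACAP38, and whether these received vehicle is not stated in the sources used here. Both groups were the same cells of 1 tumour-derived line, grown with fetal bovine and horse serum on coated dishes, with no transgene or deletion named in the labels. RNA of each group (n = 6) was pooled and measured on 2 Agilent arrays with 2 colours, one with PACAP38 in Cy5 and one with PACAP38 in Cy3. The arrays of a time point therefore hold the same pools, each time point is 1 replicate, and the folds of both arrays are given in place of an error. PACAP38 was not tested against control within a time point. In RNA of a culture, more transcript per cell and more cells with the transcript cannot be told apart.

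Phosphodiesterases hydrolyse cAMP and cGMP and so end the signal that adenylate and guanylate cyclases start. PACAP38 acts through the PAC1 receptor, which raises cAMP in chromaffin and PC12 cells, and several phosphodiesterase genes, those of the PDE4 family in particular, are known to be induced by cAMP itself. The PDE4, PDE7 and PDE8 families are specific for cAMP. PDE1 (activated by calcium and calmodulin), PDE2 (stimulated by cGMP), PDE3 (inhibited by cGMP) and PDE10 hydrolyse both nucleotides.

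The 12 arrays lay on 3 slides, with 5 and 10 min on one, 15 and 30 min on another and 60 and 120 min on the third. The control channel gave 38.4 to 49.6% of an array's spots well above background, the PACAP38 channel 39.8 to 48.9%, and no spot was saturated. The chromaffin cell markers Th, Dbh, Ddc, Chga, Chgb, Slc18a1 and Phox2a and the PAC1 receptor gene Adcyap1r1 were well above background in control RNA on all 12 arrays. Of 6 adrenal cortex markers (Star, Cyp11a1, Cyp11b1, Cyp11b2, Cyp21a1 and Nr5a1) 0 were, on any array. The log2 ratios of the swapped arrays, turned for the dyes, correlated across probes with a signal at -0.615, -0.578, -0.335 and -0.156 at the first 4 times, and at 0.209 (60 min) and 0.572 (120 min). A correlation below 0 means that the ratios followed the dye more than the treatment, and at those times a side is stated only where both arrays share it.

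Windows around the transcript starts of the phosphodiesterase genes were searched for the cAMP response element, as a description only. RefSeq gives, on build GRCr8, 17 windows of 300 bases (250 before the start and 50 after it) for 7 of the 10 genes, with none used here for Pde1b, Pde3b and Pde7a. The palindromic element TGACGTCA was found in 0 of the 17 windows, against 1.83% of all 33469 windows. Its core, TGACG on either strand, stood in 6 of 17, from Pde4a, Pde4d, Pde8a and Pde10a, against 21.2% of all windows. The AP-1 motif TGANTCA stood in 1 of 17, a window of Pde4b, against 7.33%. The windows of Pde4a and Pde4d with a core are shown because these genes had the highest counted folds, described below. Other windows of both genes held no core and are not shown. The core is in capitals and the strand is the transcribed one, 5′ to 3′.
Pde4a, chr8:27966737-27967036, plus strand, match starting 11 bases before the transcript start: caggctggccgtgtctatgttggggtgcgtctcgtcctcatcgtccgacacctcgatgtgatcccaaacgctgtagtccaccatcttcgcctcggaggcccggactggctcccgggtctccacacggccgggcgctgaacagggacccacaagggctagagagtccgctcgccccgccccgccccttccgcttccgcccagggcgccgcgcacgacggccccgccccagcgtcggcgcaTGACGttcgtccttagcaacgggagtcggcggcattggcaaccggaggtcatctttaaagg
Pde4a, chr8:27999163-27999462, plus strand, match on the other strand starting 18 bases before the transcript start: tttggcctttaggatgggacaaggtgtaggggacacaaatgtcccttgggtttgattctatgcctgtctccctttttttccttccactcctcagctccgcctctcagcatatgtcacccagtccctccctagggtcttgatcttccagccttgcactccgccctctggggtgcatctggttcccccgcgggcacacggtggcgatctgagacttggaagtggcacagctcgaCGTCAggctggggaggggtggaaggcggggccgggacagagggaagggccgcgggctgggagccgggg
Pde4d, chr2:42592499-42592798, plus strand, matches starting 231 (other strand) and 194 bases before the transcript start: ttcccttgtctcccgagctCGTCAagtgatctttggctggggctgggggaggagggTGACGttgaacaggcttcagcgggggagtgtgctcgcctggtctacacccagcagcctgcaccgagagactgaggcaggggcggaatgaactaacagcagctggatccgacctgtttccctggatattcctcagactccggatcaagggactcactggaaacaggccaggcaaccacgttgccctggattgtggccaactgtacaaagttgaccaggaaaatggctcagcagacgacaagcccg
Pde4d, chr2:42767367-42767666, plus strand, match starting 19 bases before the transcript start: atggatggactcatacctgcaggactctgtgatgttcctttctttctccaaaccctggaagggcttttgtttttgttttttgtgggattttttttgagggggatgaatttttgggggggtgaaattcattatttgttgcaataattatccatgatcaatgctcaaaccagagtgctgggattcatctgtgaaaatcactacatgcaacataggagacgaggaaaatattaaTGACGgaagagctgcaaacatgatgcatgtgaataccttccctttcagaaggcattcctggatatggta
These are matches of letters in windows at alternative starts, and the arrays did not measure which start PC12 cells used.

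By 120 min, transcripts of the cAMP-specific genes Pde4a and Pde4d were higher with PACAP38 and that of Pde7a was lower. Pde4a was 7.30-fold higher, the 4 detected probes of Pde4d were 2.24- to 3.42-fold higher, and the 2 probes of Pde7a stood at 0.478 and 0.397 of control. For Pde4a, control RNA was well above background only on the array with a fold of 5.37. These sizes depended on the processing. With normexp and loess but no offset Pde4a was 4.09-fold, Pde4d 2.11- to 3.09-fold and Pde7a 0.505 and 0.521 of control, and with an offset of 50 added they were 1.66-fold, 1.46- to 1.88-fold, and 0.595 and 0.807. To be counted, a probe needed a fold of 2 or more (higher) or of 0.5 or less (lower) on each of the swapped arrays, each with a spot p-value of the scanner software below 0.01. Of the 16 phosphodiesterase probes, 4 (25.0%) were counted as higher at 120 min, against 1.95% of all probes, and 1 (6.25%) as lower, against 1.53%. The 4 higher probes stand for 2 genes, since 3 of them are probes of Pde4d. All these shares include probes without a signal. At 120 min 11 of the 16 phosphodiesterase probes had one, while 20202 of all 41012 probes had one at any time point and entered the slope fit below. The shares were not taken over probes with a signal alone. With normexp and the offset 0 probes were counted in either direction at 60 or 120 min, and Pde4a left the 120 min count where both RNAs had to be well above background on both arrays. At 60 min 1 of 16 probes, of Pde4d, was counted as higher, against 0.871% of all probes, and 0 as lower, against 0.376%. From 5 to 30 min 0 of 16 were counted in either direction, when 0, 0.0659, 0.0902 and 0.249% of all probes were higher and 0, 0, 0.0268 and 0.102% lower at the 4 times in turn. The median log2 ratio over the 16 probes was 0.40 at 120 min and 0.18 at 60 min, beside 0.02 and 0.00 over all probes tested. Both medians include probes without a signal, which at 120 min were 5 of the 16. The genes were chosen with earlier results of these data known, so these shares describe the list and are no test of it.

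**Figure D1:**
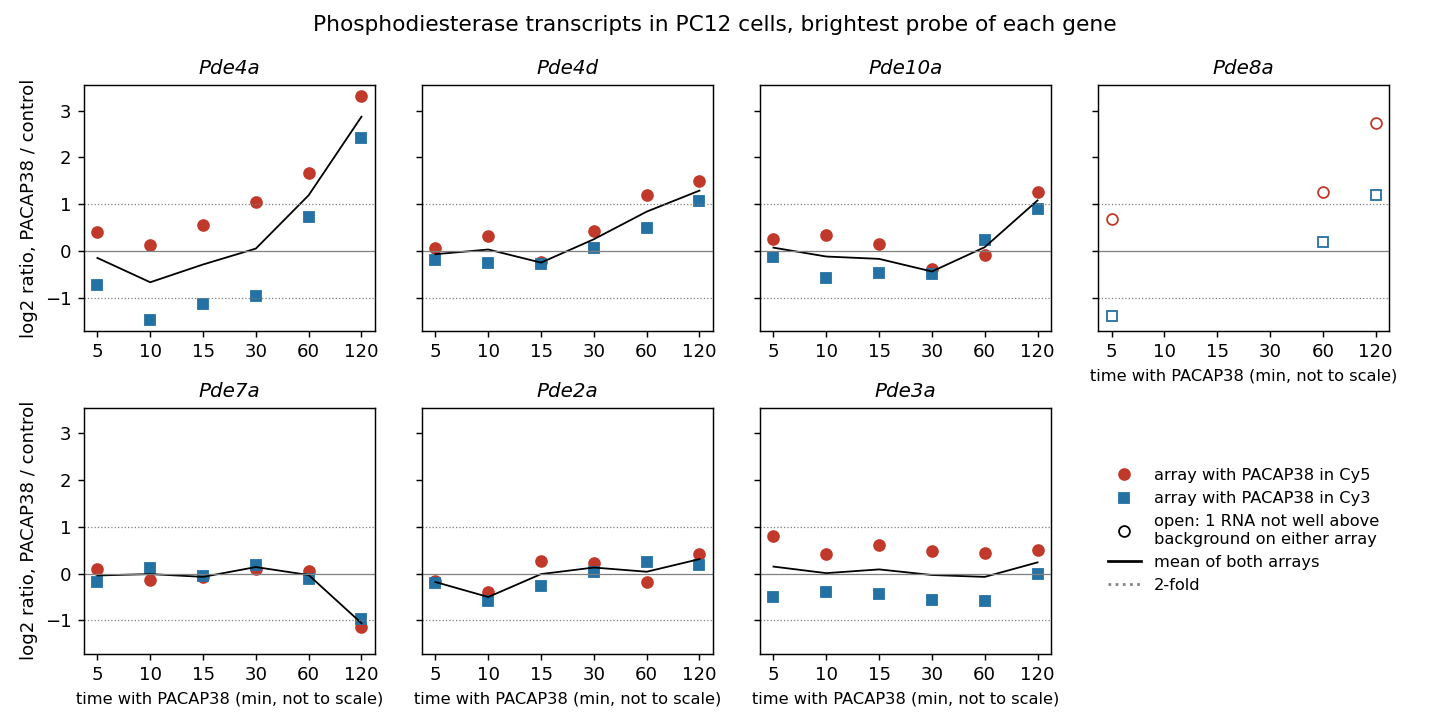
Log2 ratio of PACAP38 to control for the brightest probe of 7 phosphodiesterase genes at 6 time points (min, spaced evenly); circles are the array with PACAP38 in Cy5, squares the array with PACAP38 in Cy3, lines their mean, open symbols values with 1 RNA not well above background on either array, and dotted lines 2-fold. Pde4a and Pde4d lie above 0 on both arrays at 60 and 120 min, Pde7a falls at 120 min alone, and the arrays of Pde3a lie on opposite sides of 0 at all 6 time points.

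Pde4a encodes a cAMP-specific phosphodiesterase of the PDE4 family, the family inhibited by rolipram. Its probe A_44_P228932 (transcript NM_013101) lies at chr8:20240912-20240971 on build rn4. With PACAP38 in Cy5, its folds from the first to the last time point were 1.33, 1.10, 1.47, 2.08, 3.16 and 9.92. With PACAP38 in Cy3 they were 0.608, 0.362, 0.455, 0.513, 1.65 and 5.37. Until 30 min the arrays stood on opposite sides of 1, with PACAP38 higher whenever it was in Cy5, and in this span the probe was well above background in 8 of 8 Cy5 signals and in 1 of 8 Cy3 signals. Only at 60 and 120 min were both arrays above 1. At 60 min the mean fold was 2.28 but the probe was not counted, because the array with PACAP38 in Cy3 was under 2-fold with a spot p of 0.0154. At 120 min it was counted, with a mean fold of 7.30 and spot p-values of 9.07e-18 and 9.79e-13, while control RNA was well above background on 1 of the 2 arrays. That was the array with PACAP38 in Cy3 and a fold of 5.37, and on the array with the fold of 9.92 the control signal was not well above background. The change lay in the PACAP38 channel: the processed PACAP38 signals at 120 min were 552 in Cy5 and 301 in Cy3, against control signals of 55.7 in Cy3 and 56.1 in Cy5. Between the time points of 1 slide, the mean fold went from 0.898 at 5 to 0.630 at 10 min, from 0.818 at 15 to 1.03 at 30 min and from 2.28 at 60 to 7.30 at 120 min.

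Pde4d encodes another cAMP-specific PDE4 enzyme, known for its many isoforms with separate first exons. Its brightest probe, A_43_P11785 (NM_017032), is placed on the rn4 contig chr18_random at 268765-268824. With PACAP38 in Cy5 its folds were 1.04, 1.24, 0.855, 1.35, 2.30 and 2.84 over the 6 times, and on the swapped array they were 0.870, 0.840, 0.830, 1.05, 1.40 and 2.10. Both arrays were below 1 at 15 min and above 1 from 30 min on. Its mean fold was 1.19, 1.79 and 2.44 at the last 3 times, and it was counted at 120 min, with spot p-values of 1.12e-09 and 2.39e-06.

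The probe A_44_P311334 (XM_008760722, contig chr2_random, 1584975-1585034), which lies far along a longer Pde4d transcript, was counted at both late time points. Its folds with PACAP38 in Cy5 and Cy3 were 2.13 and 2.60 at 60 min and 2.76 and 4.24 at 120 min, which gave means of 2.35 and 3.42. Here the array with PACAP38 in Cy3 was the higher one, the opposite of A_43_P11785. A_44_P926567, on the same transcript and contig (1586424-1586483), had folds of 2.52 and 2.33 at 120 min and was counted. A_44_P683068 (NM_017032, chr18_random, 266188-266247) reached 2.61 and 1.93 and was not counted, for the fold on the array with PACAP38 in Cy3. The fifth probe, A_44_P489826, near the 5′ end of NM_001113332, was well above background on none of the 12 arrays in either RNA, so this transcript has no fold here. Over the 4 probes with a signal, mean folds ran from 0.861 to 0.971 at 5 min and from 0.772 to 1.04 at 15 min. They ran from 1.10 to 1.39 at 30 min, from 1.52 to 2.35 at 60 min and from 2.24 to 3.42 at 120 min. Each of the 4 had a higher fold at each of these last times than at the time before, but they share their RNA and at least in part their transcripts and are not replicates of each other.

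**Figure D2:**
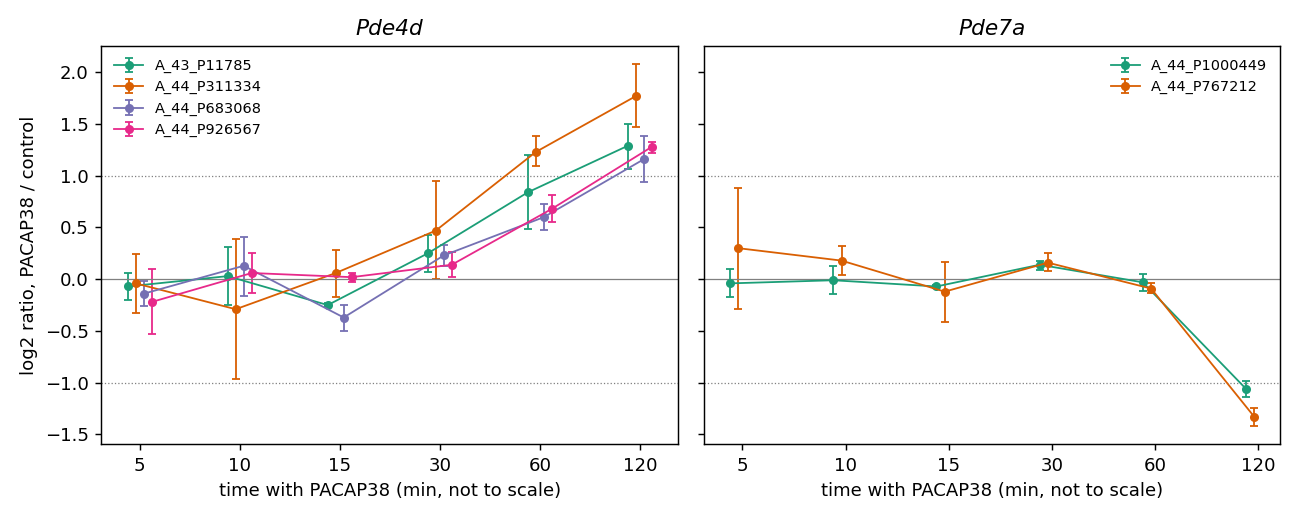
Mean log2 ratio of PACAP38 to control for the 4 detected probes of Pde4d and the 2 of Pde7a by time (min, spaced evenly); bars run from one swapped array to the other and dotted lines mark 2-fold. The Pde4d probes rise together from 30 min to between 2.24- and 3.42-fold at 120 min, while both Pde7a probes stay near 0 until 60 min and lie near or under 0.5-fold at 120 min.

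Pde4b, the third PDE4 gene and the member of the family known for its induction in inflammatory cells, gave no signal well above background, in any RNA or on any array (probe A_44_P258949), and no fold is given.

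Pde7a encodes a cAMP-specific enzyme insensitive to rolipram. The probe A_44_P1000449 (NM_031080, rn4 chr2:104340030-104340089) had folds between 0.886 and 1.13 on the 10 arrays up to 60 min. At 120 min its folds were 0.452 and, with PACAP38 in Cy3, 0.506 (spot p 6.83e-07 and 1.15e-05), just outside the limit of 0.5 on the latter, and it was not counted. The probe A_44_P767212 (XM_008760880, rn4 chr2:104337660-104337719) had folds of 0.373 and 0.423 at 120 min, with spot p-values of 1.64e-06 and 8.26e-06, and was counted as lower. Before 120 min its folds ran from 0.754 to 1.84, and the arrays lay on opposite sides of 1 at 5 and 15 min. Both probes thus differed between the last 2 time points of 1 slide, from means of 0.980 and 0.941 at 60 min to 0.478 and 0.397 at 120 min.

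Pde8a, whose enzyme has a high affinity for cAMP and is not inhibited by the common methylxanthine IBMX, was near the limit of the array. Its probe A_44_P121092 (NM_198767), split by the annotation over chr1:137524088-137525340 on rn4, gave no fold at 10, 15 and 30 min, when neither RNA was well above background, or at 5 min, when only control RNA was, on 1 array. At 120 min the PACAP38 signals were 88.2 in Cy5 and 45.3 in Cy3, well above background on both arrays, and the control signals were 13.2 and 19.8, well above background on neither. PACAP38 was at least 2.16-fold higher, a bound from the normalized PACAP38 level against the higher of the control's own level and the lowest level well above background on each array. The bound holds for the processed signals alone: the ratio of normexp-corrected signals with loess was 2.01 without an offset (2.54 and 1.59 on the arrays) and 1.15 with it, against a control signal that was likewise not well above background. It was not counted, since the spot p was 1.25e-07 on one array but 0.0204 on the other. At 60 min the PACAP38 signal was well above background on 1 array, and no direction is given: the processed ratios were 2.39 and 1.14 (spot p 0.0230 and 0.744), and with normexp and loess the array with PACAP38 in Cy3 lay below 1, at 0.977 without the offset and 0.993 with it.

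Pde10a encodes an enzyme for both nucleotides that is best known from striatal neurons. Its probe A_44_P200116 (NM_022236, rn4 chr1:46393649-46393706) gave folds of 1.19, 1.27, 1.10, 0.762, 0.949 and 2.42 from 5 to 120 min with PACAP38 in Cy5. With PACAP38 in Cy3 they were 0.922, 0.667, 0.715, 0.714, 1.18 and 1.86. Both arrays were below 1 at 30 min (mean 0.737) and above it at 120 min (mean 2.12), on which the array with PACAP38 in Cy3 fell short of 2-fold, so the probe was not counted (spot p 8.53e-06 and 6.08e-04).

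None of the probes of Pde2a, Pde3a, Pde3b and Pde1b was counted at any time point. Pde2a (A_44_P226881), the cGMP-stimulated enzyme, was well above background on all 12 arrays in both RNAs, with mean folds from 0.709 at 10 min to 1.24 at 120 min and single arrays between 0.665 and 1.34. Pde3a, the cGMP-inhibited enzyme of heart, platelets and oocytes, was measured by A_44_P838331 with mean folds of 0.950 to 1.18. The accession of this probe was the only one of the 16 not matched to its gene in RefSeq, so the Pde3a values rest on the gene name in the array files. Its arrays never lay on the same side of 1: with PACAP38 in Cy5 the fold was above 1 at 6 of 6 time points, and with PACAP38 in Cy3 at 0 of 6. The second Pde3a probe, A_43_P11923, was not well above background on any array. Pde3b, the cGMP-inhibited enzyme of adipocytes and liver, had a signal at 60 min alone, with folds of 0.918 and 1.12, and Pde1b, activated by calcium and calmodulin, had none.

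Channel signals were also set on 1 scale over all arrays (log2 of the processed signals after Aquantile normalization), to see which RNA moved. For Pde4a the control level was 5.26 at 120 min, within its range of 5.09 to 5.79 at 5 to 60 min, while the PACAP38 level was 8.12, above its earlier range of 5.12 to 6.28. The brightest Pde4d probe showed the same, with a control level of 8.75 at 120 min (8.65 to 9.01 before) and a PACAP38 level of 10.03 (8.56 to 9.50 before). For Pde10a the control level was 5.69 (5.43 to 6.32 before) and the PACAP38 level 6.77 (5.51 to 6.00 before). For the brightest Pde7a probe the control level was 9.51 (9.37 to 9.91 before) and the PACAP38 level 8.45 (9.34 to 9.87 before). For these 4 probes the PACAP38 level lay outside its earlier range at 120 min and the control level within it. The control level of the Pde4d probe A_44_P926567, 7.33 at 120 min, lay slightly above its earlier range of 6.88 to 7.24, with PACAP38 at 8.60.

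**Figure D3:**
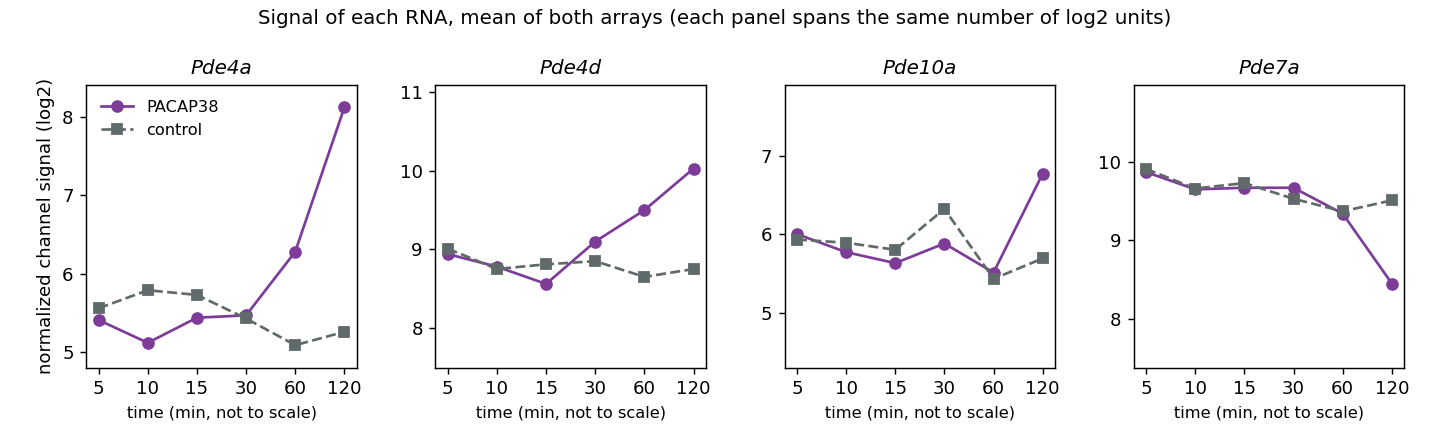
Normalized log2 signal of PACAP38 RNA (circles) and control RNA (squares), each the mean of both arrays, for Pde4a, Pde4d, Pde10a and Pde7a (brightest probes) by time (min, spaced evenly). At 120 min the PACAP38 level of Pde4a is 8.12 against 5.26 in control, and that of Pde7a 8.45 against 9.51; levels of different genes are not comparable.

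A trend over time was tested with limma, as a slope of the mean log2 ratio on log2 minutes, with the 6 time points as replicates. Of the 12 phosphodiesterase probes fitted, 0 passed a Benjamini-Hochberg adjusted p of 0.05 over all 20202 probes, a limit that 0.728% of all probes passed. The probes of Pde8a and Pde3b had a fold at 0 and 1 of the 6 time points, so their slopes are not read here. Of the other 10, 7 had an unadjusted p under 0.05 (6 rising and 1 falling), against 28.7% of all probes fitted and 30.1% of those with a fold at all 6 time points. These 7 were every fitted probe of Pde4d, those of Pde4a and Pde2a, and the counted one of Pde7a. The Pde4d probes share their RNA, so the 7 are not separate genes. The lowest adjusted p by limma was that of the Pde4d probe A_44_P311334, 0.0562, for a slope of 0.45 ± 0.069 (SE) log2 units per log2 unit of time. The other 3 Pde4d probes had slopes of 0.28 to 0.32 with limma adjusted p-values from 0.0625 to 0.0856, and Pde4a had the steepest slope, 0.68 ± 0.16 (SE), with an adjusted p of 0.0826. For Pde4a, 1 of 8 Cy3 signals at 5 to 30 min was well above background. Its early ratios, and so its slope, rest largely on signals near background. For the counted Pde7a probe the slope was -0.28 ± 0.092 (SE), with an adjusted p of 0.122 by limma.
The result changed with the time axis. With time in minutes in place of log2 minutes, 8 of these 10 probes passed by limma: those of Pde4a and Pde10a, 4 of Pde4d and 2 of Pde7a, with adjusted p-values between 0.00240 and 0.0382, against 26.4% of all probes fitted and 29.0% of those with a fold at all 6 time points. On this axis the 120 min time point lies far from the other 5.

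How far the folds at 120 min depended on the background correction and its offset was read from the scanner's mean and background signals. With normexp correction, an offset of 50 and loess, the folds of Pde4a, Pde4d and Pde7a given above kept their direction on both arrays, but 0 of 16 probes then reached 2-fold on both arrays at 60 or 120 min. Pde10a stood at 1.22-fold. With median centring in place of loess, the folds were 1.61 for Pde4a, 1.34 to 1.63 for Pde4d, 0.519 and 0.770 for Pde7a and 1.17 for Pde10a. With normexp and loess but no offset, a setting added after these values were seen, the brightest Pde4d probe was 2.41-fold and Pde10a 1.81-fold. The count with no offset was 1 higher probe at 60 min, and 3 higher probes (Pde4a and Pde4d) and 0 lower at 120 min.

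**Figure D4:**
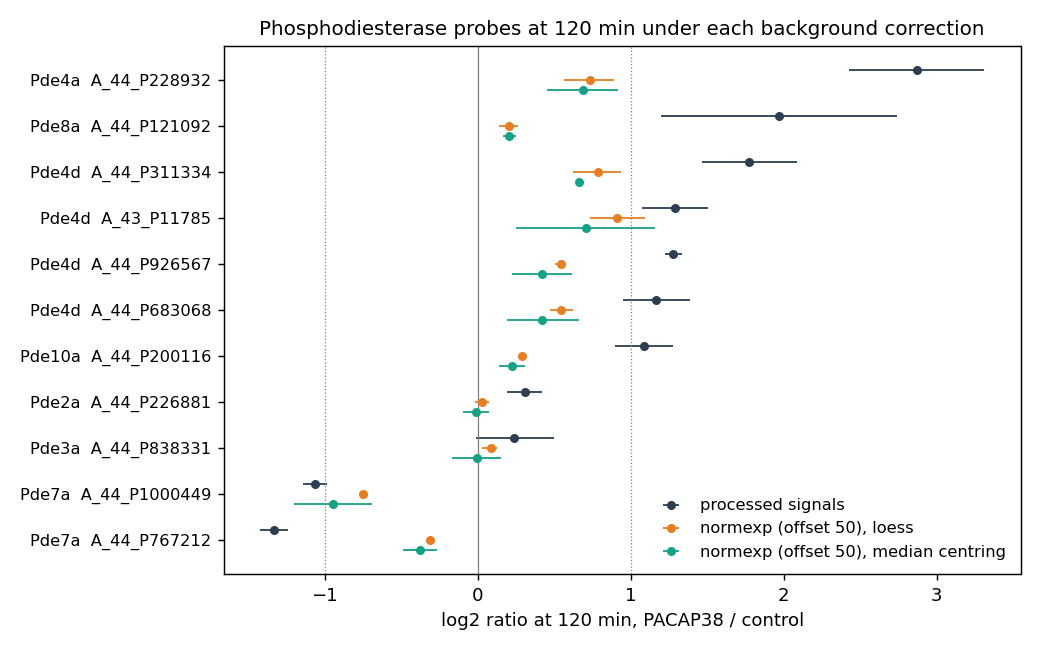
Log2 ratio of PACAP38 to control at 120 min for the 11 phosphodiesterase probes with a signal, from the processed signals and from normexp-corrected signals with loess or median centring; points are means and bars run from one swapped array to the other, with dotted lines at 2-fold. In the processed signals Pde4a lies at the top (7.30-fold) and Pde7a at the bottom (0.397-fold). The normexp bars are those with the offset of 50, and none of them lies wholly beyond the 2-fold lines. With normexp and loess but no offset, which is not drawn, 3 probes (of Pde4a and Pde4d) were counted as higher and 0 as lower.

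Other genes of the pathway were read by the same rule. Of 14 other phosphodiesterase genes 13 were on the array, with 18 probes, and 0 were counted at any time point. Of these 18 probes, 1 had a signal at each time from 5 to 30 min and 2 at 60 and at 120 min, so few could be counted. At 120 min Pde9a was well above background in control RNA on both arrays and in PACAP38 RNA on neither. By the same kind of bound as for Pde8a, from the processed signals, it was at least 1.83-fold lower, with folds of 0.706 and 0.190. Only Pde6d, whose product is a prenyl-binding subunit, was well above background on all 12 arrays, with mean folds from 0.834 at 120 min to 1.14 at 15 min. Of the adenylate and guanylate cyclase genes, 14 with 21 probes were on the array, and 0 were counted at any time point. At 120 min the 9 cyclase probes with a signal had mean folds of 0.596 to 1.37. Of the 14 genes for phosphodiesterase partners, anchoring proteins and kinases (30 probes), 1 was counted, at 120 min: the brightest probe of Akap1, which encodes an anchor of protein kinase A at mitochondria, was lower, with folds of 0.438 and 0.393 (spot p 2.60e-07 and 1.62e-08). That is 3.33% of the probes of this list, beside the 1.53% of all probes lower at 120 min, and the counts of 0 above stand beside that share and the 1.95% of all probes that were higher. Akap1 had lain between 0.778 and 1.17 on the arrays before.

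For each gene with a counted probe, the 3 nearest time courses among other named genes with a signal at all 6 time points were taken by Euclidean distance of the 6 mean log2 ratios. Those of Pde4a were Camk1g (distance 0.623), Lamb3 (0.671) and Lama5 (0.750), with log2 ratios of 2.41, 2.71 and 2.46 at 120 min beside 2.87 for Pde4a. Nearest to the brightest Pde4d probe were Bcl2l11 (0.124), Irs2 (0.230) and Tsc22d2 (0.251), at 1.31, 1.20 and 1.33 beside 1.29 at 120 min. The counted Pde7a probe had Wdsub1 (0.258), Zfp652 (0.300) and Togaram1 (0.317) nearest, at -1.38, -1.22 and -1.26 beside -1.33. All 9 of these probes were counted at 120 min, and only Lamb3 among them was also counted at 60 min. The likeness is over 6 time points that share arrays and slides.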

How the data were processed

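The authors hybridized pooled RNA of PC12 cells on 12 Agilent 4x44K rat arrays (build rn4) and extracted them with Agilent Feature Extraction (12.0.3.1 in the file headers, 11.0.1.1 in the labels). The deposited Cy3 and Cy5 intensity values are background-subtracted and LOWESS dye-normalized, with surrogates for spots near background, and the scanner's mean and background intensities were deposited beside them. The deposited log10 ratio (Cy5 over Cy3) and spot p-value come from the authors' software and were not turned for the dye swap.

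Processed intensities were turned into log2 ratios of PACAP38 over control by the dye of each array, without the 1639 control spots and the 197 to 267 outlier spots per array. A gene's value is its brightest probe. Channel levels and lower bounds used the processed intensities with Aquantile normalization and no further loess. The slope used limma 3.58.1 in R 4.3.3 and was tested on simulated data, and other steps used Python 3.11.15, pandas 2.3.3, numpy 2.4.6 and matplotlib 3.10.9. Of 16 probes, 15 matched their gene by RefSeq accession.

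Described in full were genes with a counted probe or slope, and others by range, with Pde8a and Pde10a added after their values were seen. Members and lists were chosen with earlier results of these data known, and some cell type markers are not reported here. Alternatives covered fold and p limits, single arrays, background correction, the deposited ratios, filters, the time axis, slide as a block and each time point left out.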

Additional observations from a re-analysis of the deposited data

Results flagged for a closer look

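For 4 genes, both arrays of the brightest probe went one way at one time point and the opposite way at another. These differences between time points were not tested, since each time point is 1 replicate, and each pair lay on different slides. On the slide that 60 and 120 min share, the log2 ratios went from 0.05 and -0.11 to -1.14 and -0.98 for Pde7a and from -0.08 and 0.24 to 1.27 and 0.90 for Pde10a. The brightest Pde4d probe had log2 ratios of -0.23 and -0.27 at 15 min, a mean of -0.25, and a mean of 1.29 at 120 min (folds of 2.84 and 2.10), a difference of 1.54. At 15 min both arrays of the Pde4d probe A_44_P683068 were also below 1 (folds of 0.842 and 0.708). Those of A_44_P311334 (0.891 and 1.22) and A_44_P926567 (1.05 and 0.978) lay on opposite sides of 1. Pde10a had -0.39 and -0.49 at 30 min and 1.27 and 0.90 at 120 min, a difference of 1.52. For Pde7a the values were 0.09 and 0.18 at 30 min and -1.14 and -0.98 at 120 min, a difference of -1.20. Pde2a had -0.40 and -0.59 at 10 min and 0.42 and 0.19 at 120 min, a difference of 0.80, and on neither occasion reached 2-fold. The pattern depended on the processing. For Pde2a the arrays at 120 min lay on opposite sides of 0 with each of the 3 normexp settings, and the difference was 0.11 with the offset and loess, 0.43 without the offset and 0.06 with median centring. For Pde4d and Pde7a it held with loess, with and without the offset, but with median centring the arrays split at 15 min (0.10 and -0.19) and at 30 min (-0.01 and 0.07). Pde10a kept it with all 3, with differences of 0.37, 1.23 and 0.31.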

How the results depend on the processing

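Every count of phosphodiesterase probes from the processed signals stayed within 1.5 times with the spot p limit at 0.001 or absent and with the deposited table of ratios. With 1 array alone, 0 to 1 probes were lower at 5 to 30 min, 1 to 3 higher at 60 min, and 4 to 7 higher and 1 to 2 lower at 120 min, the upper values at 60 and 120 min coming from the array with PACAP38 in Cy5. A fold limit of 1.5 gave 6 higher probes at 120 min, Pde10a now among them, and 2 lower. Normexp with an offset of 50, with loess or with median centring, left 0 higher at 60 min and 0 higher and 0 lower at 120 min, and normexp with loess but no offset, chosen after seeing the data, left 0 lower at 120 min. Requiring both RNAs to be well above background on both arrays took Pde4a from the 120 min count and left 3 higher probes, all of Pde4d. The number of slopes past the adjusted p of limma was 0, but 9 with time in minutes (8 without Pde8a, which had no fold at any time point), 1 without 5 min (Pde4d A_44_P311334, adjusted p = 0.0297 by limma) and 2 when only probes with a signal at all 6 time points were fitted (the same probe at 0.0367 and A_44_P926567 at 0.0405). It stayed 0 with slide as a block and without each of the other 5 time points. Of 129 log2 folds recomputed with normexp or as a median over a gene's probes, 96 moved by less than the spread between both arrays and 33 moved more, and 28 had the other sign, 0 of them where the fold was counted. Signal over background limits Pde1b, Pde3b, Pde4a, Pde4b and Pde8a.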
